A study of Rattus norvegicus with 12 samples.

Results

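The noncoding RNA probes of this array study are those whose systematic name in the raw array files starts with NR_, RefSeq's mark for known noncoding transcripts, or XR_, its mark for noncoding transcripts predicted by a gene model, and that also have a row in the deposited series matrix. The rule found 2149 probes for 2102 transcripts, of 22669 names in the matrix. Of these, 73 probes read 59 NR_ transcripts and 2076 probes read 2043 XR_ transcripts. The array itself carried 117 NR_ and 7249 XR_ probes.

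The study treated myotubes of L6, an established rat skeletal muscle cell line, for 24 h and measured total RNA on 12 Agilent 1-colour arrays. It had 4 groups of 3 arrays: a DMSO control, and GR24, pinosylvin or resveratrol at 60 µM, each dissolved in DMSO. GR24 is a synthetic analog of the strigolactones, a class of plant hormones, and pinosylvin and resveratrol are plant stilbenes of which resveratrol has an additional hydroxyl group. Per the labels the cells were differentiated for 6 days, on which the sources differ. The replicates are separate experiments on a single cell line, so the p-values below measure the spread between those experiments and not between cell sources.

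Noncoding RNAs do their work without being translated. The long ones include host transcripts whose introns carry small nucleolar RNAs, imprinted RNAs made from a single parental allele, and antisense transcripts, while short structured RNAs such as ribosomal RNA, the RNA of the signal recognition particle and that of RNase P carry out translation, protein export and tRNA processing. In skeletal muscle H19 is the best known of them: it is abundant in fetal muscle and in differentiating myoblasts, and a microRNA is cut from it.

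Values are log2 of the processed signal relative to the array's 75th percentile, so a difference of 1 is a 2-fold change. The levels of different noncoding probes are not compared, except to choose the brightest for naming and for representing a gene. Testing was limited to probes that the scanner flagged as well above background on each array of 1 or more groups, and a probe is called if limma's p, adjusted over all 24278 tested probes of the array, was under 0.05. Of the member probes, 1814 (84.4%) were tested and 335 were not. A member that was tested only through the group where it is bright was selected on that brightness. The counts below therefore describe the tested members and support nothing by themselves. Well above background on all 12 arrays were 1269 members (59.1%), against 82% of all probes in the matrix, with 78.1% for NR_, 58.4% for XR_, 88% for NM_ (known mRNAs) and 79.2% for XM_ (predicted mRNAs). The noncoding probes were thus above background on all arrays less often than the known mRNA probes, and the predicted ones least often. The number of members well above background per array ran from 1438 to 2001. For replicates 1, 2 and 3 it was 1684, 1438 and 1894 with GR24 and 1816, 1561 and 1977 in the control.

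Symbols were known for few of them. RefSeq's gene annotation of the GRCr8 rat genome named 188 member probes, 69 of the NR_ and 119 of the XR_ probes, and 1961 accessions were not in it. The 188 probes belong to 173 genes, of which 43 have a symbol that is not a LOC or RGD placeholder, and 36 of these were tested. By gene type, the named NR_ probes comprise 47 of long noncoding RNAs, 14 of transcribed pseudogenes, 5 of ribosomal RNA, and 1 each of Rpph1 (listed there under RNase MRP RNA), the signal recognition particle RNA and the telomerase RNA. The named XR_ probes comprise 111 of long noncoding RNAs and 8 of genes the table lists as protein-coding, where the accession is of a model marked as noncoding. Whether those 8 probes also read the mRNA of the gene was not tested. The 7 symbols that were not tested are Cb707485, Cistr, Hmox2-ps1, Nrde2, Rps4x-ps1, Scail1 and Sert1, each well above background on at most 2 arrays of any group.

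With GR24, 364 members were higher and 377 lower than the control, 20.1% and 20.8% of those tested, where 31.5% and 25.5% of all tested probes were higher and lower. This balance depends on the processing. It was 425 and 307 with the 75th percentile taken over all spots, 416 and 343 with quantile normalization, 410 and 324 in the deposited table, and 330 and 350 with normexp. With the replicate block it was 438 and 521 (24.1% and 28.7%, beside 36.2% and 30.3% of all tested probes), and within slide 1 379 and 481. The members were called less often than the tested probes in general, and their median log2 fold change was -0.07 against 0.03 over all tested probes. The XM_ probes also had a median of -0.07, with 24.3% higher and 30.7% lower, so it is not particular to the members. The members' median lies close to 0 and moves with the scaling and the slide: it was 0.03 when the 75th percentile was taken over all spots, which moves the median of all probes from 0.027 to 0.127, and it was -0.10 on slide 1 and 0.02 on slide 2. The median spread between replicates was also wider, with an SD of 0.254 for the members and 0.138 over all tested probes, and it was 0.142 for NR_ and 0.256 for XR_ members. Among the calls, 140 members were more than 2-fold higher and 173 more than 2-fold lower with GR24, 7.72% and 9.54% of those tested, beside 5.79% and 9.83% of all tested probes. All 3 GR24 arrays and no control array were well above background for 25 members, and the opposite held for 42, which is 1.38% and 2.32% of the tested members beside 0.717% and 1.53% of all tested probes.

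The background matters for such shares once the filter on dim probes is left out. Then 15.3% of the members were higher and 15.2% lower with GR24, and 30.4% were called, beside 15.4%, 12.8% and 28.2% of all probes of the array, so the members were no longer called less often. Every member has a row in the matrix, and many dim probes have none: over the probes with a row the shares were 26%, 21.3% and 47.2%, above those of the members. No test of a difference between shares was run, here or below.

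With pinosylvin, 157 members were higher (8.65%) and 84 lower (4.63%), beside 8.28% and 8.27% of all tested probes. In this fit the share that rose is near the background and is not a result about the members, and the share that fell is below it. Without the filter 4.37% were higher and 2.98% lower, beside 2.25% and 3.03% of all probes and 3.85% and 5.15% of those in the matrix, so against the whole array the higher share is above the background and the lower share near it. With the replicate block 271 members were higher and 138 lower (14.9% and 7.61%, beside 16.3% and 12.3% of all tested probes), and without pinosylvin replicate 2 the higher count was 102 (5.62% beside 5.09%). With resveratrol, 155 were higher (8.54%) and 110 lower (6.06%), beside 7.99% and 8.99% of all tested probes. The same reading holds in this fit: the higher share is near the background and the lower share is below it. Without the filter it was 4.56% and 3.86%, beside 2.35% and 3.53% of all probes, both of which are smaller, and 4.04% and 5.56% of those in the matrix. With the replicate block 186 members were lower with resveratrol (10.3% beside 13.8%), and without resveratrol replicate 1 the higher count was 100 (5.51% beside 4.91%). The comparisons with the control share the control arrays, so their counts stand side by side and are not set against each other.

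Counts by class follow, each beside the share of all tested probes. With pinosylvin 15 of the 65 tested NR_ probes (23.1%) were higher and 4 (6.15%) lower, a median of 0.11 beside 0.05 over all tested probes. The 15 probes read 15 of the 51 tested NR_ transcripts: those of Apeg3, Gas5, Igh-6l1, Lnc134, Rn7sl1, Snhg4, Tincr and Tug1, and others with placeholder symbols. Of all tested probes 8.28% were higher and 8.27% lower with pinosylvin. With GR24, 15 NR_ probes were higher (23.1%) and 17 lower (26.2%), beside 31.5% and 25.5% of all tested probes, and with resveratrol 6 were higher (9.23%) and 8 lower (12.3%), beside 7.99% and 8.99%, which is no result about this class. Among the 135 tested probes of long noncoding RNA genes, NR_ and XR_ together, 20 (14.8%) were higher and 45 (33.3%) lower with GR24, beside 31.5% and 25.5% of all tested probes, with a median of -0.16, on slide 1 -0.26 and on slide 2 -0.08. The named long noncoding RNAs thus fell with GR24 more often than they rose, also when scaled over all spots (25 higher and 42 lower), with quantile normalization (23 and 41) and in the deposited table (21 and 38). The balance of the 1649 XR_ members that the gene table does not hold depends on the processing. In the main fit 335 were higher and 331 lower. It was 387 and 265 over all spots, 380 and 302 with quantile normalization, and 357 and 272 in the deposited table. Normexp gave 301 and 305, the replicate block 405 and 463, and slide 1 alone 347 and 432.

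**Figure D1:**
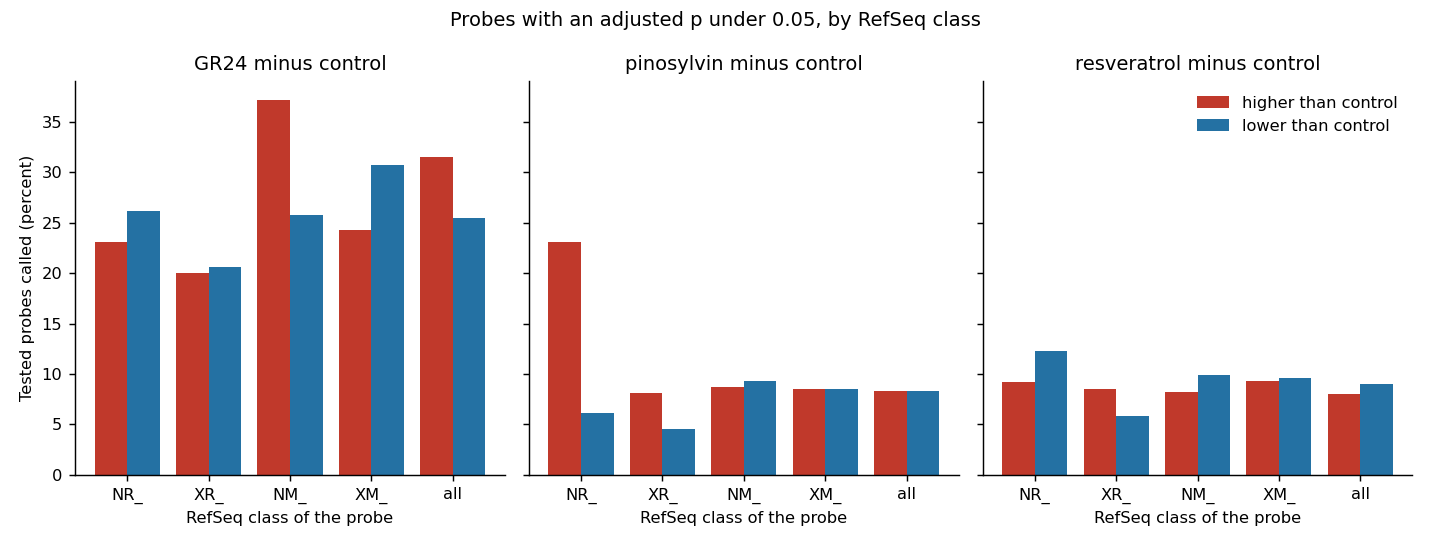
Percent of tested probes called higher or lower than the control for each compound, by RefSeq class of the probe (NR_ and XR_ noncoding, NM_ and XM_ mRNA) and over all tested probes. With GR24 37.2% of the NM_ probes were higher and 20% of the XR_ members, and with pinosylvin 23.1% of the NR_ members were higher and 8.12% of the XR_ members.

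The compounds were also compared with each other, 3 pairs in all, each with p-values adjusted over all tested probes. Between GR24 and pinosylvin 752 members differed: 331 were higher with GR24 (18.2%) and 421 lower (23.2%), beside 56.4% of all tested probes that differed, 29.6% higher and 26.8% lower. Between GR24 and resveratrol 652 differed, 296 higher (16.3%) and 356 lower (19.6%), beside 51.4%, 27.4% and 23.9% of all tested probes. The balance of both comparisons depends on the scaling: over all spots 369 members were higher and 363 lower with GR24 than with pinosylvin, and 373 higher and 301 lower than with resveratrol. The stilbenes, which differ by a hydroxyl group, differed from each other in 212 members: 85 were higher with resveratrol (4.69%) and 127 lower (7%), beside 14.5%, 6.85% and 7.68% of all tested probes. All these shares are below those of all tested probes. Without the filter this depends on the background: 17.7% were lower with GR24 than with pinosylvin and 14.8% than with resveratrol, and 5.86% differed between the stilbenes, beside 12.8%, 11.4% and 4.33% of all probes and 21.9%, 19.6% and 7.34% of those in the matrix. The count for the stilbenes was 368 with the replicate block (20.3% beside 26% of all tested probes) and 133 without pinosylvin replicate 2 (7.33% beside 8.85%). Its balance also depends on the processing, with 98 members higher and 106 lower with quantile normalization and 57 and 134 with normexp. Within NR_, 14 of 65 probes (21.5%) were lower with resveratrol than with pinosylvin and 2 were higher, a median of -0.17 beside -0.02 over all tested probes.

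The host genes of small nucleolar RNAs come first among the named members. Of a list of 24 such genes, 3 were members and all 3 were tested: Gas5, Snhg4 and Dancr. Their introns are the source of small nucleolar RNAs that guide the modification of ribosomal RNA, and the Gas5 transcript starts with a pyrimidine tract like that of ribosomal protein mRNAs. With GR24 2 of the 3 were higher, with pinosylvin 2, and with resveratrol 1, where 31.5%, 8.28% and 7.99% of all tested probes were higher. None was lower with any compound.

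Gas5, the growth arrest-specific transcript, measured 5.18, 5.44 and 5.05 on the control arrays, 5.97, 5.84 and 5.92 with GR24, 6.18, 6.21 and 6.19 with pinosylvin, and 5.70, 5.40 and 5.50 with resveratrol. Every GR24 and pinosylvin array lay above every control array, and the resveratrol arrays overlapped the control. Against the control it was higher by 0.97 ± 0.10 log2 units (SE, 1.96-fold) with pinosylvin, adjusted p = 0.000141, and 0.69 ± 0.10 (1.61-fold) with GR24, adjusted p = 0.000236. With resveratrol it was 0.31 (adjusted p = 0.0714), which the test did not call. Resveratrol lay below pinosylvin by a log2 difference of -0.66 ± 0.10 (adjusted p = 0.00236), with no overlap of their arrays, so the stilbenes differed in this RNA. GR24 lay between them, at a log2 difference of -0.28 from pinosylvin (adjusted p = 0.0408) and 0.38 from resveratrol (adjusted p = 0.0115). The -0.28 was lost on leaving out any 1 of the 6 arrays compared and was -0.11 with quantile normalization, so this difference is not a firm one, and the 0.38 was not called within slide 1 (0.36, adjusted p = 0.0569). The resveratrol value of 0.31 against the control was called with the slide as a block (adjusted p = 0.0445).

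Snhg4 measured 0.53, 0.68 and 0.64 on the control arrays, 1.35, 1.12 and 1.26 with GR24, 1.26, 1.27 and 1.59 with pinosylvin, and 1.47, 1.15 and 1.19 with resveratrol. Each of the 9 treated arrays lay above all 3 control arrays. In log2 units it rose by 0.63 with GR24 (adjusted p = 0.000813), 0.76 with pinosylvin (adjusted p = 0.00133) and 0.66 with resveratrol (adjusted p = 0.00314), each ± 0.11 (SE). No difference between compounds was called for Snhg4: resveratrol minus pinosylvin was -0.10 with a 95% interval from -0.36 to 0.15, and GR24 minus resveratrol was -0.03, from -0.28 to 0.23. Snhg4 overlaps the protein-coding gene Matr3 in the gene table, and the Matr3 mRNA had a log2 fold change of 0.17 with GR24 (adjusted p = 0.139), below the threshold of a call.

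Dancr, a host transcript known for holding back cell differentiation, measured -0.42, 0.14 and -0.06 on the control arrays, 0.29, 0.44 and 0.43 with pinosylvin, 0.58, 0.13 and 0.40 with resveratrol, and 0.20, -0.18 and 0.11 with GR24. The pinosylvin arrays were above the control arrays without overlap, but the test called no change. Its log2 fold changes were 0.50 with pinosylvin (adjusted p = 0.0591), 0.48 with resveratrol (adjusted p = 0.0661) and 0.16 with GR24 (adjusted p = 0.434). With the slide as a block the pinosylvin value passed the threshold (adjusted p = 0.044).

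Imprinted RNAs gave 2 members of a list of 16, H19 and Meg3, and the same 2 of a list of 29 RNAs known from muscle. H19 fell with GR24. Its values were 7.89, 8.02 and 7.82 on the control arrays, 6.85, 6.95 and 6.78 with GR24, 8.10, 8.11 and 8.01 with pinosylvin, and 7.61, 7.75 and 7.57 with resveratrol. The GR24 arrays lay below all others, the resveratrol arrays just below the control arrays, and the pinosylvin arrays overlapped the control. For GR24 the log2 fold change was -1.05 ± 0.078 (SE, 2.07-fold lower), adjusted p = 1.22e-06, and it was -1.05 within slide 1 and -1.04 between the single arrays of slide 2. With resveratrol it was -0.27 (adjusted p = 0.0417). With the replicate block adjusted p = 0.00316. Without the block the call is near the threshold: within slide 1 the adjusted p was 0.0704, and it was lost without control replicate 1 or 2 or resveratrol replicate 1 or 3, where the change was between -0.28 and -0.21. With pinosylvin it was 0.16 (adjusted p = 0.2), and with the replicate block adjusted p = 0.0278. Resveratrol was below pinosylvin by -0.43 ± 0.078 (adjusted p = 0.00488).

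The fall of H19 with GR24 stood beside lower signals of myotube mRNAs. Of 10 myotube markers, all tested, 7 were lower with GR24 and none higher, 2 were higher with pinosylvin and 5 lower with resveratrol. Those that fell with GR24 include Myog at a log2 fold change of -5.83, Acta1 at -3.88, Actc1 at -2.90 and Ckm at -2.58. The brightest was Myh3, at -1.0. Their summed signal, in multiples of each array's 75th percentile, was 744, 810 and 701 on the control arrays and 301, 288 and 285 with GR24, against 822, 857 and 797 with pinosylvin and 609, 625 and 585 with resveratrol. Of 6 tested markers of cycling or undifferentiated myoblasts, 4 were lower with GR24, 4 with pinosylvin and 3 with resveratrol, and their summed signal was 63.2, 59.2 and 57.8 on the control arrays, 11, 11.3 and 10.4 with GR24, 24.8, 24.9 and 23.2 with pinosylvin, and 35.2, 38.7 and 35.2 with resveratrol, with Cdk1 the brightest. The part of these shifts in the changes of the noncoding RNAs was not tested, and in bulk RNA fewer cells of a type and less RNA per cell cannot be told apart. Of the markers of other cell types, Adipoq, Ptprc and the 3 neuron markers Snap25, Syp and Rbfox3 were well above background on no array. Cd68, the brightest of 3 macrophage markers and also present in lysosomes of other cells, was higher with GR24, and the summed signal of that list went from 0.147, 0.173 and 0.257 on the control arrays to 0.727, 0.779 and 0.761, while the other tested marker of the list, Csf1r, had -0.03 (adjusted p = 0.954). One of 4 tested markers of osteoblasts and chondrocytes, Runx2, was lower with GR24, and 1 adipocyte marker, Cfd, was higher with pinosylvin, while the 1 tested endothelial marker, Cdh5, was not called.

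Meg3, the imprinted long noncoding RNA of the Dlk1-Dio3 region, was dim, with values of -4.26, -4.15 and -3.32 on the control arrays, -4.64, -4.92 and -3.56 with GR24, -3.96, -3.97 and -3.46 with pinosylvin, and -4.19, -4.38 and -3.46 with resveratrol. Replicate 3 of each group, on slide 2, was the highest. With that spread the groups overlap, and the slide and the third experiment cannot be told apart as its source. With GR24, where 2 of the 3 arrays were well above background, the log2 fold change was -0.46 ± 0.38 (adjusted p = 0.343). With the replicate block adjusted p = 0.0173, with -0.57 within slide 1 (adjusted p = 0.00545) and -0.24 on slide 2. A second probe, also well above background on 2 of the 3 GR24 arrays, gave -0.25 (adjusted p = 0.491, and 0.018 with the replicate block). Within slide 1 the second probe gave -0.34 (adjusted p = 0.0108). GR24 minus resveratrol in the first probe was -0.36 (adjusted p = 0.481, and 0.0427 with the slide as a block), and -0.49 within slide 1 (adjusted p = 0.0118). Against pinosylvin the GR24 differences of the probes were -0.57 and -0.25, not called in the main fit but called with the replicate block (adjusted p = 0.00601 and 0.019) and within slide 1 (adjusted p = 0.00133 and 0.0162).

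H19 and Meg3 each contain a microRNA gene of the RefSeq microRNA table: Mir675 lies within H19 and Mir770 within Meg3 on GRCr8. No member is itself a microRNA, and 0 entries of that table match a member, so the levels of these microRNAs were not measured. Their mature sequences are shown because the members that hold them are the imprinted RNAs described here, of which H19 fell with GR24 and Meg3 was not called in the main fit. Capitals mark the seed, bases 2 to 8, and the 4 seeds differ from one another.
rno-miR-675-5p, chr1:207161800-207161821, minus strand: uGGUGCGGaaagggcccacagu
rno-miR-675-3p, chr1:207161766-207161786, minus strand: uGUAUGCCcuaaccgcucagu
rno-miR-770-5p, chr6:134298094-134298115, plus strand: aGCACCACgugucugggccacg
rno-miR-770-3p, chr6:134298129-134298145, plus strand: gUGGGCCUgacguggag

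Oip5-as1 is the single tested member with an antisense symbol, transcribed opposite Oip5 and known in vertebrates as Cyrano. Its brighter probe measured 2.77, 2.70 and 2.84 on the control arrays, 1.29, 1.27 and 1.41 with GR24, 2.83, 2.82 and 2.81 with pinosylvin, and 2.77, 2.85 and 2.86 with resveratrol. GR24 stood apart from the other groups, which overlapped. Against the control this is a log2 fold change of -1.45 ± 0.064 (SE, 2.73-fold lower), adjusted p = 2.41e-08. Pinosylvin minus control was 0.05, with a 95% interval from -0.09 to 0.19, and resveratrol minus pinosylvin was 0.01, from -0.13 to 0.15. The other probe of the same transcript went the opposite way: 0.42, 0.31 and 0.32 on the control arrays, 1.01, 1.04 and 0.74 with GR24, 0.17, 0.03 and 0.13 with pinosylvin, and 0.21, 0.24 and 0.11 with resveratrol. There the GR24 arrays were the highest, at a log2 fold change of 0.58 ± 0.086 (adjusted p = 0.000194). With pinosylvin it was -0.24 (adjusted p = 0.086, and 0.0403 with the replicate block). Of 34 transcripts with several tested probes, Oip5-as1 was the 1 whose probes were called in opposite directions with GR24, while 13 had all their probes called in the same direction. The direction of Oip5-as1 with GR24 therefore depends on the probe, and the array files do not give the probes' places in the transcript.

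Tug1, a mostly nuclear long noncoding RNA, measured 0.18, 0.27 and -0.04 on the control arrays, 0.47, 0.63 and 0.61 with pinosylvin, 0.40, 0.33 and 0.31 with GR24, and 0.63, 0.22 and 0.33 with resveratrol. Pinosylvin and GR24 did not overlap the control, and the test called pinosylvin alone, at 0.43 ± 0.11 (adjusted p = 0.0272). With GR24 the log2 fold change was 0.21 (adjusted p = 0.152), and 0.31 and called when scaled over all spots. The pinosylvin call was lost within slide 1 (adjusted p = 0.185) and without control replicate 1 or 3 or pinosylvin replicate 2 or 3. A dimmer probe gave 0.13 with pinosylvin (adjusted p = 0.808). Of 13 RNAs on the list of nuclear and X-linked RNAs, Tug1 and Oip5-as1 were the 2 members.

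Tincr, named after a terminal differentiation-induced RNA of the epidermis, was higher with both stilbenes. It measured -1.17, -1.01 and -0.95 on the control arrays, -0.44, -0.50 and -0.52 with pinosylvin, -0.30, -0.60 and -0.31 with resveratrol, and -0.99, -1.22 and -1.04 with GR24. Each stilbene array lay above each control and GR24 array, and GR24 overlapped the control. In log2 units the changes were 0.56 ± 0.10 with pinosylvin (1.47-fold, adjusted p = 0.00374), 0.64 ± 0.10 with resveratrol (1.56-fold, adjusted p = 0.00162) and -0.04 with GR24 (adjusted p = 0.781). GR24 was below pinosylvin by -0.60 (adjusted p = 0.000492) and below resveratrol by -0.68 (adjusted p = 0.000229). Between the stilbenes the difference was 0.08, with a 95% interval from -0.14 to 0.31.

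Apeg3, the antisense transcript of the imprinted gene Peg3, which it overlaps, measured -3.12, -3.58 and -3.12 on the control arrays, -2.70, -2.50 and -2.11 with pinosylvin, -2.81, -3.47 and -2.94 with resveratrol, and -3.58, -3.46 and -3.21 with GR24. Pinosylvin was the highest group and the others overlapped. The log2 fold change with pinosylvin was 0.84 ± 0.21 (1.79-fold), adjusted p = 0.0213, and the call was lost within slide 1 (adjusted p = 0.0961) and without control replicate 2 or pinosylvin replicate 2 or 3. Resveratrol minus pinosylvin was -0.64 (adjusted p = 0.0709, and 0.023 with the replicate block). The Peg3 mRNA was also higher with pinosylvin, by 0.66 ± 0.086 (adjusted p = 0.000526), the same direction as Apeg3. With GR24 Peg3 had -0.23 (adjusted p = 0.0423) and Apeg3 -0.14 (adjusted p = 0.61), and with resveratrol neither was called.

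**Figure D2:**
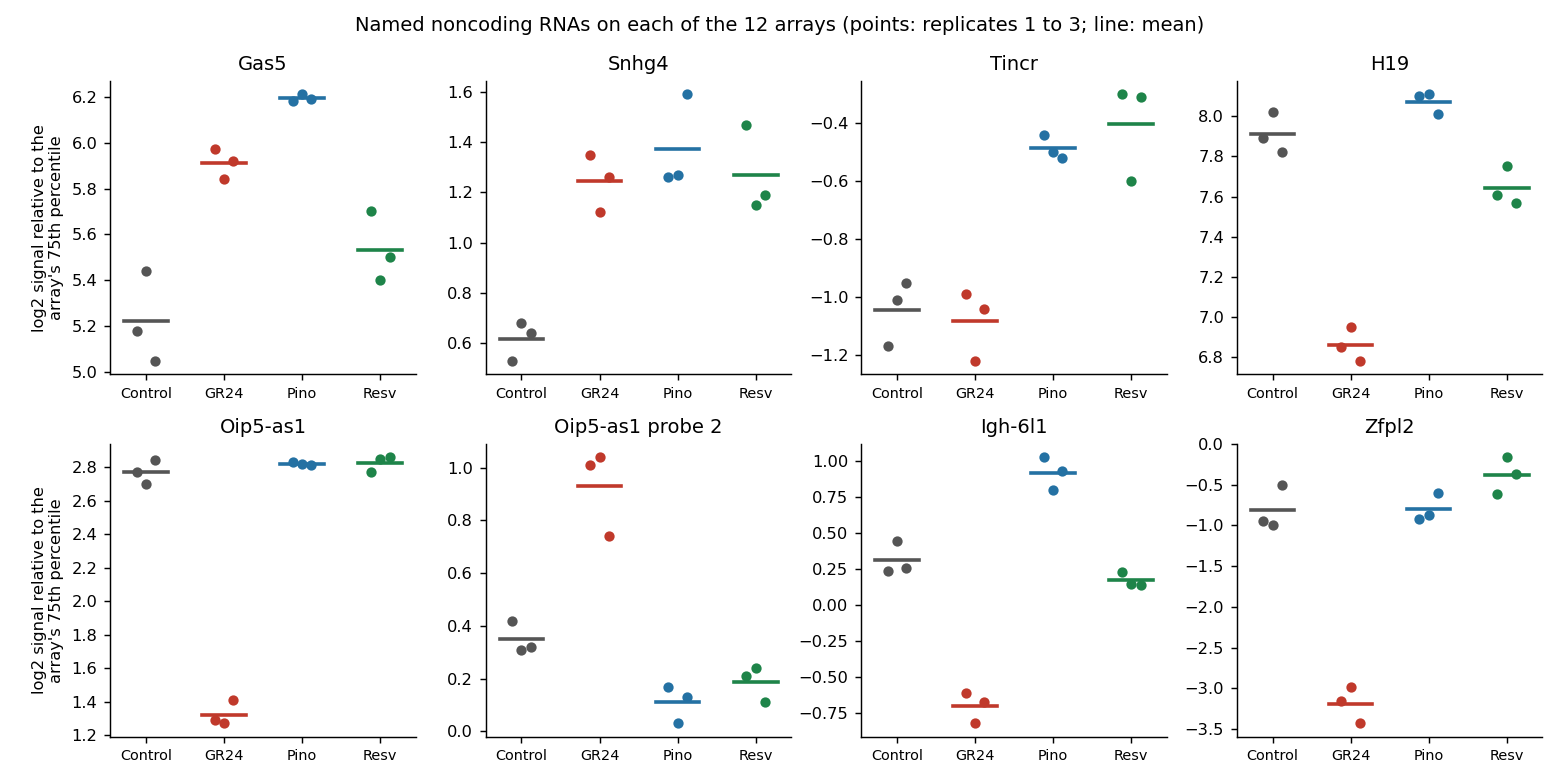
Log2 signal of 8 named probes on each of the 12 arrays, relative to the array's 75th percentile, with points for the 3 replicates of each group and a line at their mean. H19, Igh-6l1, Zfpl2 and the brighter Oip5-as1 probe are lowest with GR24, Snhg4 is above the control with every compound, and Tincr is higher with pinosylvin (Pino) and resveratrol (Resv).

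The largest decreases among members with a symbol were those of Ceacam6 and Zfpl2. Ceacam6, listed as a noncoding transcript of the carcinoembryonic antigen family, measured -1.74, -1.65 and -1.84 on the control arrays, -2.18, -2.17 and -2.35 with pinosylvin and -2.94, -2.71 and -2.86 with resveratrol, and was not well above background on any GR24 array. The groups did not overlap. For such a group a bound is given, the mean of the bright group against the mean, per array, of the higher of the lowest signal well above background and the probe's own signal. By it Ceacam6 was at least 12.8-fold lower with GR24 (adjusted p = 1.05e-06). A second probe gave at least 9.27-fold (adjusted p = 2.45e-07), and another, well above background on 1 GR24 array, a log2 fold change of -1.95 (adjusted p = 2.19e-05). These sizes hold for the scanner's background subtraction: with normexp, which leaves more background in, the first probe's log2 fold change was -1.87. With resveratrol it was -1.09 (2.13-fold lower, adjusted p = 0.0286) in the first probe and -1.21 (adjusted p = 0.00332) in the second, and the first probe's call was lost within slide 1 (adjusted p = 0.0908) and on leaving out any 1 of the 6 arrays compared.

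Zfpl2 measured -0.95, -0.99 and -0.50 on the control arrays, -3.16, -2.98 and -3.43 with GR24, -0.92, -0.87 and -0.60 with pinosylvin, and -0.61, -0.16 and -0.37 with resveratrol. All 3 GR24 arrays were far below the other 9. GR24 minus control was -2.37 ± 0.17 (5.19-fold lower), adjusted p = 9.81e-07, with -2.10 within slide 1 and -2.93 on slide 2. With pinosylvin it was 0.02, and with resveratrol 0.44 (adjusted p = 0.118).

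AA926063 fell with GR24 and less with resveratrol. It measured -2.38, -2.37 and -2.69 on the control arrays, -4.02, -4.0 and -4.33 with GR24, -3.24, -3.21 and -3.27 with resveratrol, and -2.41, -2.39 and -2.70 with pinosylvin. Pinosylvin matched the control array by array to within 0.03 log2 units, resveratrol lay below them, and GR24 below resveratrol. This gives log2 fold changes of -1.64 ± 0.12 with GR24 (3.12-fold lower, adjusted p = 1.26e-06), -0.76 ± 0.12 with resveratrol (1.69-fold lower, adjusted p = 0.00192) and -0.02 with pinosylvin, with a 95% interval from -0.29 to 0.25. Resveratrol minus pinosylvin was -0.74 (adjusted p = 0.00295).

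Igh-6l1 moved in opposite directions with GR24 and pinosylvin. It measured 0.24, 0.45 and 0.26 on the control arrays, -0.61, -0.82 and -0.67 with GR24, 1.03, 0.80 and 0.93 with pinosylvin, and 0.23, 0.15 and 0.14 with resveratrol. The groups were separate: pinosylvin highest, then the control, resveratrol just below it, and GR24 lowest. These are log2 fold changes of -1.01 ± 0.087 with GR24 (adjusted p = 3.44e-06) and 0.61 ± 0.087 with pinosylvin (adjusted p = 0.000951). With resveratrol it was -0.14 (adjusted p = 0.323), which is not a call. Resveratrol lay below pinosylvin by -0.75 (adjusted p = 0.000359), and GR24 below pinosylvin by -1.62 (adjusted p = 1.31e-07).

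The transcript 2810025M15Rikl was lower with all 3 compounds. It measured 2.76, 3.00 and 2.64 on the control arrays, 2.31, 2.31 and 2.06 with GR24, 2.35, 2.46 and 2.26 with pinosylvin, and 2.52, 2.33 and 2.26 with resveratrol. All 9 treated arrays were below the 3 control arrays. The log2 fold changes were -0.57 with GR24 (adjusted p = 0.00144), -0.44 with pinosylvin (adjusted p = 0.024) and -0.43 with resveratrol (adjusted p = 0.0273), each ± 0.11. The stilbenes' calls were lost without control replicate 1 or 2, among other arrays, at changes of -0.46 and -0.34 with pinosylvin. Resveratrol minus pinosylvin was 0.01, with a 95% interval from -0.24 to 0.27.

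The structured RNAs are a group of their own, since they lack a typical poly(A) tail and the label was made from an oligo-dT primer. Their signal may rest on priming at internal sites, which was not tested. Of a list of 19, 6 genes were members and all were tested: Rn45s, Rn18s and Rn5-8s of the ribosomal RNA, Rn7sl1 of the signal recognition particle, Rpph1 of RNase P, and Terc of telomerase. Probes of ribosomal RNA can also read its many near-identical copies. With GR24 2 of the 6 were higher and 1 lower, with pinosylvin 1 was higher, and with resveratrol 1 was lower, where 31.5%, 25.5%, 8.28% and 8.99% of all tested probes were. So few calls are no result about the group.

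These probes shared their order across arrays. Of their 8 probes, control replicate 2 was the highest control array in 7, pinosylvin replicate 2 the highest of its group in 8, resveratrol replicate 1 the highest of its group in 7 and GR24 replicate 2 the lowest of its group in 7. Where it was 7 of 8, Terc was the exception. The median SD within a group was 0.41 for the 5 ribosomal RNA probes, against 0.138 over all tested probes. Rn5-8s shows the range, with -0.02, 1.49 and 0.29 on the control arrays, 1.06, 0.55 and 1.76 with GR24, 0.50, 1.66 and 1.39 with pinosylvin, and 0.40, -0.38 and 0.08 with resveratrol. A single group spans more than the difference between the groups, except that GR24 and pinosylvin lie above resveratrol without overlap. No change of Rn5-8s was called.

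Rn18s measured 0.91, 1.99 and 0.93 on the control arrays, 1.99, 1.50 and 2.53 with GR24, 1.18, 2.17 and 1.72 with pinosylvin, and 1.12, 0.45 and 0.70 with resveratrol. GR24 lay above resveratrol, by 1.25 ± 0.37 (2.38-fold, adjusted p = 0.0151), and the other pairs of groups were not called. Within slide 1 that difference was 0.96 (adjusted p = 0.139). Rn45s, the precursor, measured 8.77, 9.13 and 8.80 on the control arrays and 8.91, 8.86 and 8.89 with GR24 in its brightest probe. The log2 fold change was -0.01 ± 0.095 (adjusted p = 0.919), and with quantile normalization it was 0.24 (adjusted p = 0.0117), so its direction depends on the scaling. Its other probes gave -0.02 and 0.14.

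Rn7sl1 measured 2.94, 3.31 and 2.46 on the control arrays, 3.85, 3.74 and 3.86 with GR24, 3.49, 3.79 and 3.45 with pinosylvin, and 3.16, 2.66 and 2.75 with resveratrol. GR24 and pinosylvin lay above the control without overlap, and resveratrol within its range. The log2 fold changes were 0.91 ± 0.20 with GR24 (1.89-fold, adjusted p = 0.00269) and 0.67 ± 0.20 with pinosylvin (1.6-fold, adjusted p = 0.046), and -0.05 with resveratrol. With GR24 the change was 0.67 within slide 1 and 1.40 on slide 2. The pinosylvin call was lost within slide 1 (adjusted p = 0.15) and on leaving out control replicate 1 or 3 or any pinosylvin array, at changes from 0.45 to 0.74. Resveratrol minus pinosylvin was -0.72 (adjusted p = 0.0393), a call lost within slide 1 (adjusted p = 0.071) and on leaving out 5 of the 6 arrays in turn, at -0.61 to -0.78.

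Rpph1 measured 1.23, 1.70 and 1.04 on the control arrays, 1.90, 1.72 and 2.05 with GR24, 1.74, 2.00 and 1.75 with pinosylvin, and 1.58, 0.91 and 1.20 with resveratrol. The lowest GR24 array was 0.02 above the highest control array. The log2 fold change with GR24 was 0.56 ± 0.20 (adjusted p = 0.0313), 0.34 within slide 1 (adjusted p = 0.289) and 1.01 on slide 2, and the call was lost without control replicate 1 or 3 or GR24 replicate 1 or 3. Terc measured -3.09, -3.12 and -3.14 on the control arrays, -3.28, -3.36 and -3.43 with GR24, -3.32, -3.08 and -3.32 with pinosylvin, and -3.53, -3.28 and -3.46 with resveratrol. GR24 and resveratrol were below the control without overlap, by small amounts. The log2 fold changes were -0.24 ± 0.089 with GR24 (adjusted p = 0.0414) and -0.31 ± 0.089 with resveratrol (adjusted p = 0.0391). Both calls were lost under the quantile, normexp and deposited-table alternatives, the GR24 call also when scaled over all spots (log2 fold change -0.14), and each within slide 1.

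**Figure D3:**
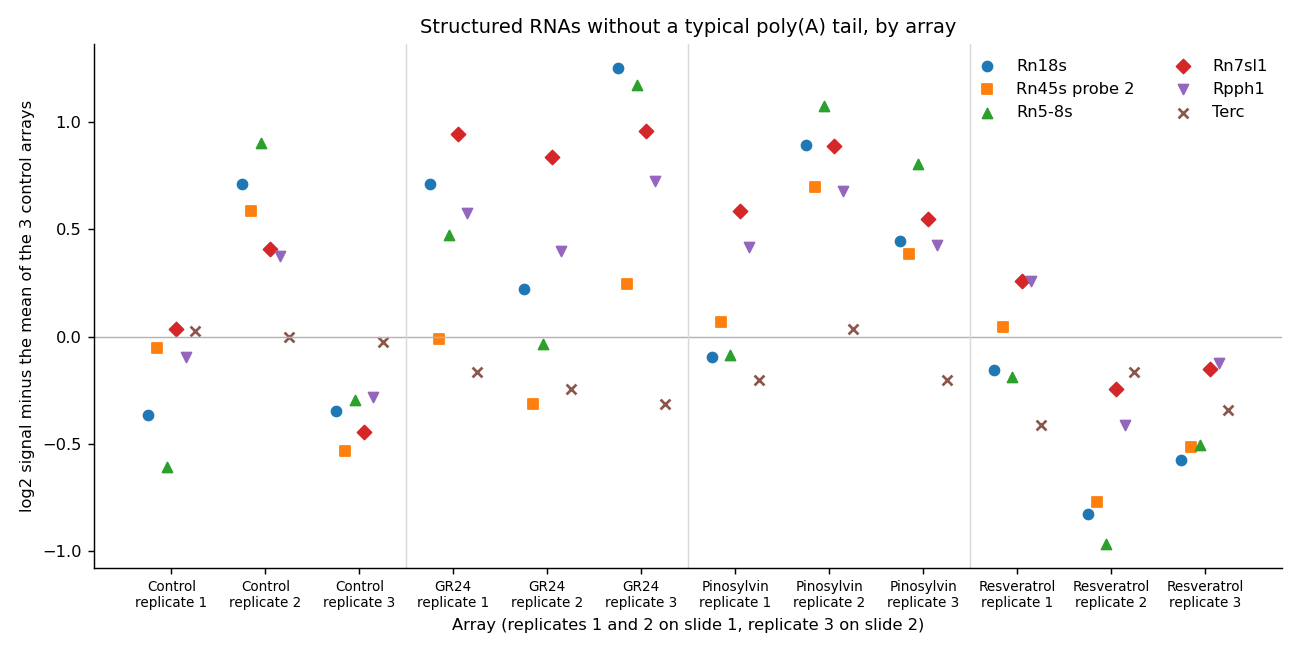
Log2 signal of 6 structured RNAs on each of the 12 arrays, minus the mean of the 3 control arrays of the same probe, with a marker per RNA. For Rn45s a dimmer probe, probe 2, is drawn. The markers of Rn18s, Rn45s probe 2, Rn5-8s, Rn7sl1 and Rpph1 are highest within their group on control replicate 2, GR24 replicate 3 and pinosylvin replicate 2. They are lowest within their group on resveratrol replicate 2, and the markers of Terc stay between -0.5 and 0.5.

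Transcribed pseudogenes are copies of mRNAs, and a probe for one can also read its parent gene or other copies, so their changes are uncertain as to source. With a pseudogene symbol, 6 of 12 on the array were members and 4 were tested. Gapdh-ps1 measured 4.38, 4.42 and 4.67 on the control arrays, 5.02, 5.01 and 5.20 with GR24, 4.49, 4.50 and 4.82 with pinosylvin, and 4.49, 4.67 and 4.76 with resveratrol. GR24 was above all other groups, exceeding the control by 0.59 ± 0.12 log2 units (1.5-fold, adjusted p = 0.00155), and the others overlapped. Its second probe gave 0.86 (adjusted p = 0.0498), a call lost without control replicate 1 or 2 or any GR24 array, at 0.66 to 0.96. In that probe GR24 minus resveratrol was 0.59 (adjusted p = 0.175, and 0.00601 with the replicate block).

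In Cox6c-ps1 and Hmgb1-ps2 replicate 3 differed from the other replicates by more than the treatments did. Cox6c-ps1 measured 2.22, 2.27 and 3.51 on the control arrays, 1.98, 2.00 and 3.03 with GR24, 2.24, 2.28 and 3.62 with pinosylvin, and 2.22, 2.19 and 3.23 with resveratrol. Replicate 3, which is both a separate experiment and the array on slide 2, was about 1 log2 unit or more above the other 2 in every group. Without a block the change with GR24 was -0.33 ± 0.50 (adjusted p = 0.613), and with the replicate block adjusted p = 0.00544, with -0.26 within slide 1 (adjusted p = 0.0101) and -0.48 on slide 2. The block also brought out GR24 minus pinosylvin (-0.38, adjusted p = 0.00268) and GR24 minus resveratrol (-0.21, adjusted p = 0.0457). Hmgb1-ps2 measured -2.62, -2.56 and -0.93 on the control arrays, -2.40, -2.51 and -0.98 with GR24, -2.39, -2.45 and -1.14 with pinosylvin, and -2.71, -2.80 and -1.48 with resveratrol. Again replicate 3 was the highest in each group. The change with resveratrol was -0.29 (adjusted p = 0.831, and 0.0375 with the replicate block), and with that block GR24 minus resveratrol (0.37, adjusted p = 0.00585) and resveratrol minus pinosylvin (-0.34, adjusted p = 0.0238) were called too. Selenok-ps2 measured 4.85, 5.02 and 4.81 on the control arrays, 4.80, 4.77 and 4.98 with GR24, 4.92, 4.97 and 5.11 with pinosylvin and 4.70, 4.44 and 4.77 with resveratrol, and resveratrol minus pinosylvin was -0.36 (adjusted p = 0.0452), a call lost under 5 alternatives, among them slide 1 alone (adjusted p = 0.0719), and on leaving out 5 of the 6 arrays in turn. Against the control no change of Selenok-ps2 was called.

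Some XR_ probes are assigned to transcript models of protein-coding genes, and the mRNA probe of the same gene is set beside them. The array files do not give their places in the transcripts, and whether they also read the mRNA was not tested. Of 7 tested, 3 were higher with GR24 and none was called with pinosylvin or resveratrol, where 31.5% of all tested probes were higher with GR24 and 16.6% and 17% were called with the stilbenes, so these counts say nothing of the group. Limk2 was called with resveratrol (-0.51, adjusted p = 0.111) in the replicate block (adjusted p = 0.032), as was its resveratrol minus pinosylvin difference (-0.46, adjusted p = 0.157, and 0.048 with the block). Ttc14 measured -3.92, -3.57 and -3.41 on the control arrays, -2.32, -2.22 and -1.96 with GR24, -3.75, -3.65 and -3.21 with pinosylvin, and -3.56, -3.69 and -3.38 with resveratrol. GR24 alone was apart, by 1.47 ± 0.17 (2.76-fold, adjusted p = 3.56e-05), and the Ttc14 mRNA changed by 1.45 ± 0.091 (adjusted p = 3.49e-07). Dusp18, a dual-specificity phosphatase gene, measured -2.63, -2.81 and -2.88 on the control arrays and -1.94, -1.93 and -2.09 with GR24. It changed by 0.78 ± 0.12 (adjusted p = 0.000182), and its mRNA by 0.85 ± 0.13 (adjusted p = 0.000214). Resveratrol minus pinosylvin was 0.38 for Dusp18 (adjusted p = 0.053, and 0.0313 with the replicate block).

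Styx, which encodes a phosphatase-like protein without catalytic activity, measured -0.31, -0.51 and -0.32 on the control arrays and -0.10, -0.06 and -0.22 with GR24. The groups did not overlap, at a change of 0.26 (adjusted p = 0.0198), with 0.47 for its mRNA (adjusted p = 0.0117), and the call was lost without GR24 replicate 1 or 2 or control replicate 2, at 0.19 to 0.25. Dhodh, the gene of dihydroorotate dehydrogenase of pyrimidine synthesis, measured -5.23, -4.21 and -5.00 on the control arrays, -3.90, -4.17 and -4.01 with GR24, and -4.94, -4.63 and -5.87 with pinosylvin, where 2 of the 3 arrays were well above background, as in the control. GR24 was above pinosylvin by 1.12 ± 0.32 (adjusted p = 0.0114), a call lost within slide 1 (0.75, adjusted p = 0.0884), with 1.86 on slide 2. The change against the control was 0.79 (adjusted p = 0.0549, and 0.0431 with the slide as a block), with 0.64 for the mRNA (adjusted p = 0.00433). The noncoding probes of Limk2 and Pou2f1 were not called for GR24 against the control, with -0.20 beside an mRNA change of 0.41 (adjusted p = 0.0119) for Limk2 and -0.32 (adjusted p = 0.0585, and 0.0187 with the replicate block) beside -0.06 for Pou2f1. The Pou2f1 probe was called for GR24 minus pinosylvin (-0.43, adjusted p = 0.0171) and GR24 minus resveratrol (-0.48, adjusted p = 0.0106). In the 3 genes whose XR_ probe was called for GR24 against the control, the mRNA probe was called in the same direction. Both probes may read a shared transcript, and 31.5% of all tested probes were higher with GR24, so this is not a result about noncoding transcripts. The Pou2f1 mRNA was not called against either stilbene (-0.12 and -0.09).

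The remaining tested symbols are given after their values were seen. Lnc134 rose with pinosylvin, from -2.18, -2.08 and -2.11 on the control arrays to -1.71, -1.83 and -1.75, a change of 0.36 (adjusted p = 0.0298). The groups did not overlap, and within slide 1 the change was not called (adjusted p = 0.124). Against the control Lnc134 was not called with GR24 (-0.16) or resveratrol (0.17). GR24 lay below pinosylvin by -0.52 (adjusted p = 0.00101) and below resveratrol by -0.33 (adjusted p = 0.0146). Within slide 1 the difference from pinosylvin was called (adjusted p = 0.0238) and that from resveratrol was not (adjusted p = 0.105). Eef1akmt2, Lin28c, Prrc2c, Smim30l1 and Vof16 were not called with any compound. The largest of their changes were 0.64 for Vof16 with pinosylvin (adjusted p = 0.0703, and 0.0403 with the replicate block) and 0.38 for Lin28c with GR24 (adjusted p = 0.262, and 0.00894 with the replicate block). For Lin28c the block also changed GR24 minus pinosylvin (0.36, adjusted p = 0.292, then 0.0123) and GR24 minus resveratrol (0.31, adjusted p = 0.385, then 0.0263).

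Most members have no symbol, and 4 were chosen by accession as the largest changes with GR24. XR_595600 reached that flag on no control array and measured -1.41, -1.41 and -1.49 with GR24, -3.21, -3.41 and -3.34 with resveratrol, and -4.67, -4.37 and -4.61 with pinosylvin. The 3 treated groups were separate from one another, in the order GR24, resveratrol, pinosylvin. It was at least 16.3-fold higher with GR24 (adjusted p = 1.21e-07), at least 4.44-fold with resveratrol (adjusted p = 5.96e-05) and at least 1.89-fold with pinosylvin (adjusted p = 0.00138). Resveratrol minus pinosylvin was 1.23 ± 0.27 (adjusted p = 0.0124). With normexp its log2 fold change with GR24 was 2.33.

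XR_593607 measured -3.68, -3.74 and -4.24 on the control arrays, -0.35, -0.39 and -0.64 with GR24, -3.72, -3.81 and -3.76 with pinosylvin, and -3.15, -3.28 and -3.35 with resveratrol. GR24 was 10.8-fold above the control (log2 fold change 3.43 ± 0.14, adjusted p = 1.29e-08, and 2.23 with normexp). Resveratrol was slightly above the control without overlap, by 0.63 (adjusted p = 0.0111), a call that was lost with normexp and in the deposited table.

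XR_589243 measured -1.69, -1.70 and -1.98 on the control arrays, -1.98, -2.02 and -2.21 with pinosylvin, and -2.83, -3.01 and -3.12 with resveratrol, and XR_592549 measured -2.0, -1.97 and -1.79, then -2.01, -1.87 and -2.24, and -2.91, -3.04 and -2.91 in the same order of groups. Neither was well above background on any GR24 array. With GR24, XR_589243 was at least 15-fold lower (adjusted p = 5.98e-10) and XR_592549 at least 13.7-fold lower (adjusted p = 1.08e-08), and with normexp their log2 fold changes were -1.95 and -1.98. Both were also lower with resveratrol, at -1.19 (adjusted p = 0.000188) and -1.04 (adjusted p = 0.00291), and neither was called with pinosylvin. In both, resveratrol minus pinosylvin was called, at -0.91 (adjusted p = 0.00127) for XR_589243 and -0.92 (adjusted p = 0.00693) for XR_592549.

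Position was not used by the rule, and the gene table gives it for 139 member genes that are not protein-coding. Of these, 82 have a protein-coding gene within 10000 bases, 43 of them overlapping it, and 48 pairs were tested on both sides. With GR24 the noncoding gene was called in 22 pairs, its neighbour in 31 and both in 11. With 31.5% of all tested probes called higher and 25.5% lower, joint calls arise between unrelated genes too, and these counts are not a result about neighbours. In 8 of the 11 they moved in the same direction and in 3 in opposite directions. With pinosylvin 11 noncoding genes, 12 neighbours and 2 pairs were called, and with resveratrol 5, 8 and 1. The pairs described next were chosen after their values were seen, and a probe of an overlapping gene on the same strand could read the neighbour's transcript, which was not tested.

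LOC102553018 lies 32 bases from Ccn1, which encodes a secreted matricellular protein. It measured 2.72, 2.68 and 2.20 on the control arrays, -0.12, -0.16 and -0.42 with GR24, 2.70, 2.78 and 2.51 with pinosylvin, and 2.36, 2.19 and 2.02 with resveratrol. GR24 lay below every other array. GR24 minus control was -2.77 ± 0.15 (adjusted p = 1.2e-07), beside -1.66 ± 0.092 for Ccn1 (adjusted p = 1.27e-07). With resveratrol it was -0.35 (adjusted p = 0.158, and 0.00886 with the replicate block), and resveratrol minus pinosylvin was -0.48 (adjusted p = 0.0651, and 0.00255 with the block).

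LOC102550095 overlaps Fgf9, a fibroblast growth factor gene. It measured -2.40, -2.45 and -2.65 on the control arrays, -4.17, -4.88 and -4.36 with GR24, where 2 of the 3 arrays were well above background, -1.64, -2.04 and -1.86 with pinosylvin, and -2.37, -2.27 and -2.42 with resveratrol. GR24 lowered it and pinosylvin raised it, without overlap in either case. The log2 fold change with GR24 was -1.97 ± 0.17 (adjusted p = 3.44e-06), beside -1.97 ± 0.19 for Fgf9 (adjusted p = 9.15e-06), and with pinosylvin it was 0.66 ± 0.17 (adjusted p = 0.0241), a value that was 0.59 and not called within slide 1 (adjusted p = 0.162). Between the stilbenes, resveratrol minus pinosylvin was -0.51 (adjusted p = 0.0742, and 0.0382 with the replicate block).

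LOC102551073 overlaps Col15a1, a basement membrane collagen gene, and fell with GR24 from -0.20, 0.04 and 0.08 to -1.65, -1.21 and -1.51. Its log2 fold change was -1.43 (adjusted p = 3.13e-06), and that of Col15a1 was -1.09 (adjusted p = 1.77e-07). With resveratrol LOC102551073 had -0.26 (adjusted p = 0.188, and 0.0357 with the replicate block). LOC100910558, 1507 bases from the transcription factor gene Nfib, fell from 1.94, 1.93 and 1.81 to 0.33, 0.15 and 0.12, a change of -1.69 (adjusted p = 6.54e-08), while Nfib changed by -0.38 (adjusted p = 0.000538). In these pairs both transcripts fell, by unlike amounts in the second.

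In other pairs both genes were higher. LOC102548461, which overlaps the sorting nexin gene Snx6, rose with GR24 from -2.98, -2.86 and -3.20 to -1.70, -1.40 and -1.70, a change of 1.42 (adjusted p = 1.85e-05) beside 0.60 for Snx6 (adjusted p = 0.000182). With the replicate block LOC102548461 was also called for pinosylvin (-0.35, adjusted p = 0.151, then 0.00777) and resveratrol minus pinosylvin (0.41, adjusted p = 0.107, then 0.00477). LOC102554142, 52 bases from Sptlc1, a subunit gene of serine palmitoyltransferase, rose from -4.62, -4.25 and -4.07 to -3.13, -3.02 and -3.09, a change of 1.24 (adjusted p = 7.59e-05) beside 0.82 for Sptlc1 (adjusted p = 1.46e-05). With resveratrol it rose to -3.28, -3.47 and -3.59, a change of 0.87 (adjusted p = 0.00437). The remaining pairs called in the same direction were Igh-6l1 with Zfp46 (-0.24, adjusted p = 0.0491) and LOC103691054 (-0.43) with Pou2f2 (-1.43). The pairs called in opposite directions were LOC103693391 (-0.42) with Vps53 (0.58), LOC100365289 (0.32) with Ppp2r3b (-0.27) and LOC103693102 (-0.33) with Snupn (0.22), all with changes under 1 log2 unit. The block changed LOC100365289 with pinosylvin (0.26, adjusted p = 0.052, then 0.00868) and LOC103691054 for GR24 minus resveratrol (-0.25, adjusted p = 0.109, then 0.0452).

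The neighbours of the snoRNA hosts Gas5 and Snhg4 were not called with any compound, and Dancr has none within 10000 bases. Gas5 lies 261 bases from Zbtb37, whose log2 fold change was 0.03 with GR24 (adjusted p = 0.902). With pinosylvin it was 0.34 ± 0.16 (adjusted p = 0.204), which does not show that Zbtb37 was unchanged. Large changes of a coding gene also occurred beside noncoding genes that were not called, such as Cdc20 at -2.75 beside LOC103692460 at 0.00, Myom1 at -3.40 beside LOC102555849 at -0.62 (adjusted p = 0.188) and Slc3a2 at 1.22 beside LOC100912041 at 0.04.

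**Figure D4:**
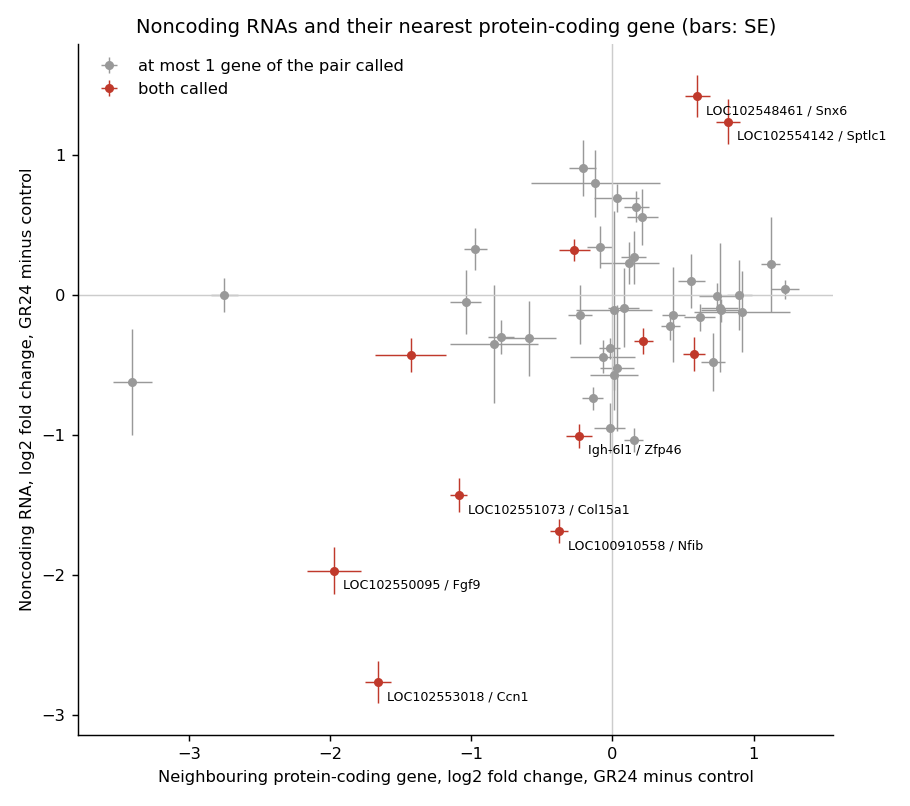
Log2 fold change with GR24 of 48 noncoding members (vertical axis) against that of their nearest protein-coding gene within 10000 bases (horizontal axis), with SE bars. Red points are the 11 pairs in which both genes were called, 8 of them in the same direction.

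Promoters of 14 named members were in a RefSeq table on GRCr8 that holds 250 bases before to 50 after each gene's start. They were searched on both strands for TGACNNNGC, the core of the antioxidant response element bound by the factor Nrf2, the regulator of many oxidative stress genes. The core was in 0 of the 14, in 21 of 215 promoters of all member genes (9.77%), in 3 of 27 of those higher with GR24 (11.1%) and in 4 of 44 of those lower with it (9.09%), which are windows, some overlapping, of 2 and 3 genes, beside 4038 of 33469 promoters in the table (12.1%). The members' shares are near that of all promoters and are not a result about the members, and a match is a description of letters and not of a binding site.

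The promoter matches among called members are shown for 3 genes, chosen after their values were seen, because they cover both directions of change. LOC102548399 measured -4.01, -3.76 and -3.92 on the control arrays and -2.58, -2.47 and -2.47 with GR24, a change of 1.39 ± 0.21 (adjusted p = 0.000191). LOC103691375 measured -3.78, -4.11 and -3.74 on the control arrays and -1.46, -1.38 and -1.52 with GR24, a change of 2.43 ± 0.10 (adjusted p = 1.52e-08). Both rose without overlap. LOC120101628 measured -2.07, -2.04 and -1.95 on the control arrays, -2.35, -2.30 and -2.22 with pinosylvin and -3.02, -2.85 and -2.85 with resveratrol, and was not well above background with GR24, at least 10.5-fold lower (adjusted p = 9.9e-09). Genes with these letters thus moved in both directions. Capitals mark the match, which in the last 2 sequences lies on the opposite strand and reads as the reverse complement.
LOC102548399, chr6:136806590-136806889, plus strand: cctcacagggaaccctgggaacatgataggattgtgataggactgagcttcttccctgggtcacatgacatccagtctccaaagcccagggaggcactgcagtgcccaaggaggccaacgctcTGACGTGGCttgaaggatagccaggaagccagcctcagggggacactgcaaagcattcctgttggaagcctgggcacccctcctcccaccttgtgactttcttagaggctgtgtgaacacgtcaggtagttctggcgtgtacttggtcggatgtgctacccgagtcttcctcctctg
LOC103691375, chr1:262434212-262434511, minus strand: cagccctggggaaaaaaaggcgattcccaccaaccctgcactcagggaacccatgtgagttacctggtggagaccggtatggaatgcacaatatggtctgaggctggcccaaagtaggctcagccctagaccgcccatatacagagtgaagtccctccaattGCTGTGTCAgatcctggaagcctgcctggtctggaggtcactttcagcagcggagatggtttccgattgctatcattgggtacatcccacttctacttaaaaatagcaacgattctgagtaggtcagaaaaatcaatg
LOC120101628, chr3:121227785-121228084, plus strand: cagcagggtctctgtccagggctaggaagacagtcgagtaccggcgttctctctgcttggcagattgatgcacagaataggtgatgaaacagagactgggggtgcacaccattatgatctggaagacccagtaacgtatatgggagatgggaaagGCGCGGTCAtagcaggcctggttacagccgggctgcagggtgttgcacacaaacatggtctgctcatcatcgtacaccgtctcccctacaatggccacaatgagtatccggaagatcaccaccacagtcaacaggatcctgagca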

How the data were processed

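RNA of 12 cultures was hybridised to 12 arrays on 2 slides, with replicates 1 and 2 on slide 1 and replicate 3 on slide 2. The authors deposited scanner files holding a processed signal, an intensity from which background was taken off within each array by Agilent Feature Extraction 12.0.0.7, and a series table of normalized log2 values, used for membership and as an alternative. Its normalization is not stated. Its values differed from quantile-normalized values by a median of 0.0091 to 0.011 per array, so it is not a fully separate alternative from quantile normalization. Spots marked as outliers were left out, spots of a probe averaged, and log2 values set against each array's 75th percentile over the averaged probes. Per array 58% to 64.3% of spots were well above background and none was saturated. The number of arrays limits the precision.

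limma 3.58.1 (R 4.3.3) fitted group means to all 12 arrays, moderated the variances with eBayes, and p-values were adjusted by Benjamini-Hochberg over 24278 probes, and the code was checked on simulated data. Normexp used the median spot signal, since the files hold no mean. Accessions without versions were matched to the GRCr8 gene table, and a gene is represented by its brightest probe. Named are the largest changes among called members with a symbol and no overlap of the arrays (10 each way for GR24, 5 for each stilbene, 3 for each pair of compounds), the 2 largest each way without a symbol, every tested member of the lists, and the 5 brightest on the control arrays. The lists of stress and p53 RNAs and of 26 microRNA host genes, which leaves out H19 and Meg3, had 0 members, and the array has 0 NR_ or XR_ probes with a snoRNA or microRNA precursor symbol. Members and lists were chosen with earlier results of these data known.

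Same-numbered arrays of different groups deviated together from their group means, with correlations of 0.191 to 0.744 over 18 pairs, against -0.663 to 0.475 for different numbers. Each same-number correlation is over 0.1, the rule by which the numbers were taken to pair the arrays. Within slide 1 different numbers gave 0.222 to 0.475 and same numbers 0.191 to 0.47, so numbers 1 and 2 are hardly told apart, and number 3 coincides with slide 2. A replicate block is given where it changes a call, as for the 271 members then higher with pinosylvin. The other alternatives were quantile normalization, normexp background correction, the deposited table, no filter, only probes above background on all 12 arrays, only the 6 arrays compared, the slide as a block, leaving out 1 array, and, added after seeing the data, scaling over all spots and slide 1 alone.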

Additional observations from a re-analysis of the deposited data

How the results depend on the processing

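The counts of members moved by more than 1.5 times in these cases. With the replicate block, and with the slide as a block, pinosylvin minus control gave 271 and 273 members higher and 138 and 136 lower, resveratrol minus control 186 and 175 lower, and resveratrol minus pinosylvin 368 and 368 that differ. With no filter on dim probes pinosylvin gave 94 higher, resveratrol 98 higher, and the stilbene pair 126. The cause was not tested, except that without a filter more probes share the adjustment. Without it the members were called more often than all probes of the array in each of the 6 comparisons, and in the main fit less often. Beside the probes in the matrix they were called less often in both.

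Leaving out 1 array gave 324 to 357 members higher and 317 to 428 lower with GR24, 102 to 151 and 67 to 79 with pinosylvin, 100 to 137 and 86 to 111 with resveratrol, 664 to 800 between GR24 and pinosylvin, 581 to 671 between GR24 and resveratrol, and 133 to 166 between the stilbenes. The lowest values of 102, 100 and 133, each without 1 array of a stilbene group, also moved by more than 1.5 times, with fewer samples. The other counts stayed within 1.5 times under the other settings.

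For the named probes, 3786 values were recomputed. Of these 3530 kept their direction and side of the threshold or were not called in either, 157 calls were lost, 97 were gained and 2 reversed. The reversed values are those of Rn45s under quantile normalization: 0.24 for GR24 minus control (adjusted p = 0.0117) and 0.24 for GR24 minus pinosylvin (adjusted p = 0.0111), and the cause was not tested. The replicate block gained 15 calls and lost 0. These and its gains for the further genes chosen after seeing the values are printed in the report, and it changed no other call in the tables of these probes.

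Of the member calls with GR24, 49.1% were higher, 48.5% with normexp, 54.8% with quantile normalization, 55.9% in the deposited table and 58.1% when scaled over all spots. The replicate block went the other way, with 438 higher and 521 lower, as did slide 1 alone, with 379 and 481. Scaling over all spots and slide 1 alone were alternatives chosen after seeing the data. Over all tested probes the share of higher calls for GR24 minus resveratrol was 53.4%, and 64.1% over all spots, and of the member calls 45.4% and 55.3%. For the stilbene pair it was 40.1% of member calls, 29.8% with normexp, 37.1% over all spots, 44% in the deposited table and 48% with quantile normalization. Signal over background limits the XR_ members, of which 58.4% passed it on all arrays.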
